A study of Mus musculus with 10 samples.

Results

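Amino acids cross membranes through carriers of several gene families. The measurements described here are those of 63 genes named after such families, in embryonic mouse lenses with and without Dicer. The genes were chosen by name from the platform annotation: every gene whose symbol begins with Slc1a, Slc3a, Slc6a, Slc7a, Slc36a, Slc38a or Slc43a and a digit, other than Slc7a11. They were carried by 65 probe sets, and where a gene had more than 1, the brightest on average was used. The 63 genes are a small part of the 19938 genes tested. The naming rule also takes in 2 opposite-strand genes, Slc6a19os and Slc7a6os, which lie beside carrier genes and are not carriers themselves. The other 61 belong to the carrier families, but not all carry amino acids. They include the heavy chains Slc3a1 and Slc3a2, carriers of monoamines, creatine and nucleobases, and Slc7a4, whose transport activity is uncertain. The rule itself uses names and no measured value, but the set was proposed with earlier results of these data known.

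Carriers of the Slc38 family take up small neutral amino acids such as glutamine and alanine with sodium, and some members work in the membrane of the lysosome. Light chains of the Slc7 family pair with a heavy chain encoded by Slc3a1 or Slc3a2 and exchange one amino acid for another, while other Slc7 members carry arginine and lysine alone. The Slc6 family moves taurine, creatine, glycine, gamma-aminobutyric acid (GABA), monoamines and neutral amino acids with sodium and chloride, and the Slc1 family moves glutamate and small neutral amino acids. The lens has no blood supply of its own. Its cells take amino acids from the surrounding fluid for crystallin and glutathione synthesis, and they accumulate taurine as an osmolyte.

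Lenses came from E13.5 embryos. DicerCN embryos were Le-Cre+/-;DicerloxP/loxP: Cre is made under a Pax6 promoter, P0, in the surface ectoderm from which the lens and corneal epithelium form, and both Dicer alleles carry loxP sites. Control embryos, called wild type in the titles, were Le-Cre-/-;DicerloxP/loxP, so they carried the same flanked alleles without Cre, and no group controls for Cre alone. Each group had 5 arrays, each from the pooled lenses of 1 embryo. The values are log2 signals, and a change is the DicerCN mean minus the control mean on that scale.

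Dicer1 signals, 10.01 to 10.32 in control and 10.19 to 10.45 in DicerCN lenses, overlapped (change 0.13, SE 0.08, limma adjusted p = 0.472), so they do not show the deletion. The labels do not say which exons are removed or whether the probes lie in them, and Dicer1 therefore gives no check of the group labels. All 13 measured lens markers lay far above the median gene in control lenses (median percentile 99.4). Of 9 cell type marker lists, the macrophage list differed most: its score, the mean log2 signal of its 15 genes minus the control mean, lay between −0.33 and 0.35 in control and between 0.22 and 1.08 in DicerCN lenses. That difference had an exact 2-sided permutation p of 0.0238, or 0.214 after Benjamini-Hochberg adjustment over the 9 lists. The smallest p this design allows is 0.00794. Even at that p, 1 list alone would not pass 0.05 after the adjustment, so the adjusted p cannot decide whether the list differed. All 15 macrophage markers had changes above 0, from 0.29 (Fcer1g) to 1.29 (Lyz2). Csf1r, Cx3cr1 and Ctss were the 3 that passed the gene test, and in control lenses 8 of the 15 lay below the median gene. The neural retina score reached 0.96 and 1.84 in DicerCN replicates 4 and 5 and lay between −0.32 and 0.46 in the other 8 arrays. DicerCN replicate 5 also had the highest neuron score (2.23), and control replicate 4 the highest muscle score (2.44, against −0.79 to −0.47 in the other 9 arrays). In whole lenses a change in the share of a cell type and a change of RNA per cell cannot be told apart.

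Of the 63 genes, 10 passed the test, 8 higher and 2 lower in DicerCN lenses (limma, adjusted p under 0.05 over all genes). That is 15.9% of the members, where 6.54% of all genes passed. The higher calls made up 12.7% of the members against 2.56% of all genes, and the lower calls 3.17% against 3.97%. The median change of the members was 0.050, next to −0.0014 over all genes, and 42 of the 63 changes were above 0. An unadjusted p under 0.05 was reached by 18 members, and by 3708 of the 19938 genes tested. The groups did not overlap in 9 members (14.3%), against 7.38% of all genes. Members with signals above the median gene in control lenses, 24 of the 63, held 7 of the calls (29.2%, where 11.2% of all genes above that median passed). Many of the rest are carriers of brain, kidney or gut measured here at low signal.

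**Figure D1:**
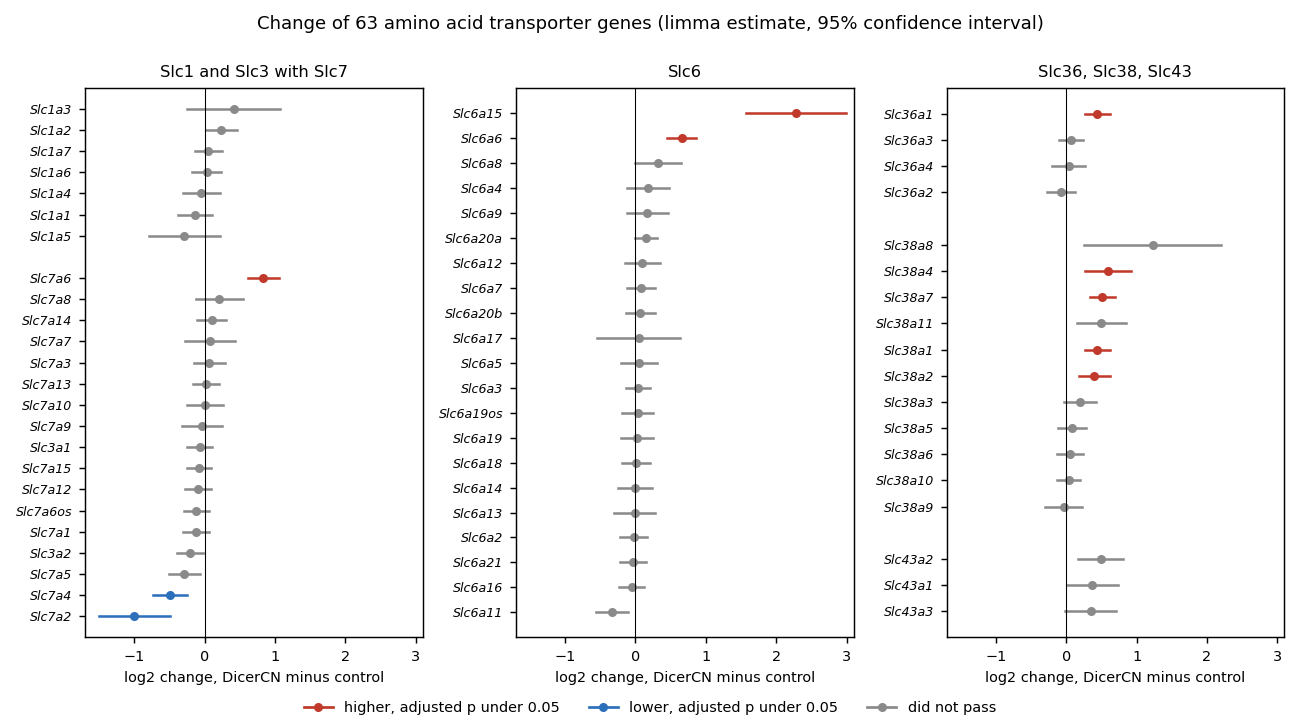
Log2 change (DicerCN minus control, x axis) of each of the 63 genes, by family; points are limma estimates, lines 95% confidence intervals, and colour marks the genes that passed at an adjusted p under 0.05. The 8 higher genes lie in Slc7, Slc6, Slc36 and Slc38 and the 2 lower genes in Slc7, while most other members lie close to 0.

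In the Slc38 family 4 of 11 genes were higher (36.4%, where 2.56% of all genes and 3.91% of those above the median gene in control were) and none was lower. Of its changes 10 of 11 were above 0, as were 9902 of the 19938 over all genes, and their median was 0.40. Of the 11 genes 8 lay above the median gene, and the difference between families was not tested. All 3 carriers of system A, the sodium-coupled uptake of small neutral amino acids, were higher. Slc38a1, a glutamine carrier of dividing and neural cells, stood at 10.10, 10.16, 10.28, 9.96 and 10.06 in the control arrays, numbered 1 to 5 here and in what follows. The DicerCN arrays, in the same order, gave 10.59, 10.50, 10.62, 10.42 and 10.64. Every DicerCN array was above every control array, and the gene rose 1.36-fold (change 0.44, SE 0.08, limma adjusted p = 0.00571). Its second probe set differed by 0.47, but there the groups overlapped, with DicerCN replicate 3 (8.858) below control replicate 3 (8.878).

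Slc38a2, the system A carrier that cells induce when amino acids run short, had signals of 11.70, 11.57, 11.56, 11.66 and 11.47 in control lenses. In DicerCN lenses they were 12.32, 12.04, 11.76, 12.0002 and 11.84, so the groups did not overlap, though DicerCN replicate 3 lay close to the highest control. It rose by 0.40 (SE 0.10, limma adjusted p = 0.0358). Slc38a4, an imprinted system A carrier known from liver and placenta, stood at 9.32, 9.52, 9.51, 9.47 and 9.02 in control and at 10.51, 9.74, 9.88, 10.01 and 9.70 in DicerCN lenses. DicerCN replicate 1 was the highest and control replicate 5 the lowest, without overlap, and the gene rose by 0.60 (SE 0.15, adjusted p = 0.0328). Both calls were near the threshold. For Slc38a2, leaving out any of the control arrays 1, 2, 3 and 5 or the DicerCN arrays 2 and 4 ended the call (adjusted p 0.0587 to 0.0922). For Slc38a4, the control arrays 1, 2, 3 and 5 and the DicerCN arrays 3 and 4 did so (0.0511 to 0.0821).

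The 3 system A genes are neighbours in the RefSeq annotation, in the order Slc38a1, Slc38a2 and Slc38a4, with no other protein-coding gene between them. The genes on either side were looked at for this reason and lie outside the rule for naming genes. Scaf11, the nearest measured gene before Slc38a1, had a change of 0.06 (SE 0.07), and Amigo2, the first gene after Slc38a4, one of 0.17 (SE 0.12). Neither passed the test. Arid2, a chromatin remodelling subunit that lies before Scaf11, rose by 0.24 (SE 0.06, limma adjusted p = 0.0418). All 3 carriers rose while the nearest measured gene on each side did not pass, and the difference between carriers and flanking genes was not tested. Other adjacent members did not all move alike: Slc36a1 rose while its neighbours Slc36a2 and Slc36a3 had changes of −0.07 and 0.06, and Slc7a6 rose while Slc7a6os, next to it, had one of −0.12.

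**Figure D2:**
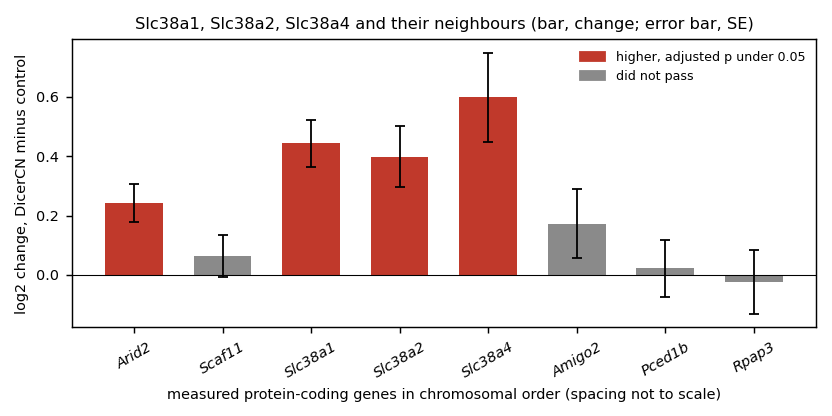
Log2 change (DicerCN minus control, y axis) with its SE for Slc38a1, Slc38a2, Slc38a4 and the measured protein-coding genes on either side, in chromosomal order and not to scale. The 3 carriers lie between 0.40 and 0.60, and of the 5 other genes only Arid2, at 0.24, passed the test.

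The other Slc38 carriers did not share one pattern. Slc38a3 and Slc38a5, carriers of system N that move glutamine and histidine, had changes of 0.20 and 0.08, and Slc38a6 and Slc38a10 of 0.05 and 0.04. Slc38a8, a glutamine carrier whose human counterpart is mutated in foveal hypoplasia, is named here after its values were seen. Its control signals were 6.32, 6.501, 7.05, 6.70 and 6.10, and its DicerCN signals 7.77, 5.86, 7.69, 9.05 and 8.44. Replicate 2 was below all control arrays and the other 4 DicerCN arrays were above them, so the change of 1.23 (SE 0.45) did not pass (limma adjusted p = 0.144, and 0.0043 without DicerCN replicate 2). Its 2 highest arrays, DicerCN replicates 4 and 5, were those with the highest neural retina scores. With that score as a covariate the change was 0.81 (adjusted p = 0.422), and with the macrophage score it was 0.58 (adjusted p = 0.769). The pigment epithelium score, −0.19 to 0.18 in control, was 0.84, −0.25, −0.02, 1.41 and 0.92 in the DicerCN arrays. It was thus also highest in replicates 4 and 5, and it was not fitted as a covariate. The part of retinal, pigment epithelium or macrophage RNA in the Slc38a8 signal was not tested. Slc38a11 had a change of 0.50 (SE 0.16) and did not pass (adjusted p = 0.0939).

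Of 4 Slc36 and Slc38 carriers placed in lysosomes and endosomes, 2 rose (50%). Of all genes 2.56% rose, and of those above the median gene in control 3.91%. Slc38a7, which exports glutamine from the lysosome, had signals of 7.93, 7.85, 8.06, 8.01 and 8.07 in control and of 8.66, 8.37, 8.57, 8.50 and 8.36 in DicerCN lenses. The groups were well apart, and the gene rose 1.42-fold (change 0.51, SE 0.08, limma adjusted p = 0.00279). Slc36a1, the proton-coupled carrier of small amino acids out of the lysosome, stood at 6.79, 6.53, 6.76, 6.84 and 6.84 in control and at 7.21, 7.08, 7.28, 7.15 and 7.25 in DicerCN lenses. It rose 1.36-fold, without overlap (change 0.44, SE 0.08, adjusted p = 0.00562). Slc38a9, the lysosomal arginine sensor of the growth kinase complex mTORC1, had a change of −0.03, and Slc36a4 one of 0.03. These 4 genes were grouped from general knowledge after their values were seen. The group leaves out lysosomal carriers of other families, so its share is not one of lysosomal carriers in general. Slc7a14, Slc15a3, Slc15a4, Slc17a5, Slc66a1 and Ctns had changes of 0.10, 0.15, 0.05, 0.12, −0.03 and 0.02, and none of them passed.

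The promoters of the 2 lysosomal genes that rose are shown because both hold the hexamer CACGTG, the core of the element through which Tfeb and Tfe3 are known to control lysosomal genes. The 100 bases that end at the base before the annotated start are given 5′ to 3′ on the gene's strand, from RefSeq on build GRCm38.p6, with the hexamer in capitals.
Slc36a1, chr11:55204240-55204339, plus strand: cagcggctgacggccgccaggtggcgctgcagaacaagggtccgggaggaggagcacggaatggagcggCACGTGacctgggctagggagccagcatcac
Slc38a7, chr8:95853492-95853591, minus strand: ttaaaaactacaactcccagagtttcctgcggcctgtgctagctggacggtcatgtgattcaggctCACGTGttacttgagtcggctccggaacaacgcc
The hexamer begins 31 bases before the start of Slc36a1 and 34 bases before that of Slc38a7. Slc36a1 holds a further match that begins 3 bases before its start and runs past it. Promoter windows of 250 bases before to 50 after the start were found for 46 of the 63 members, and 9 of these held CACGTG on either strand (19.6%, against 8.09% of 27025 genes). Beside Slc36a1 and Slc38a7 these were Slc1a6, Slc1a7, Slc38a5, Slc43a1, Slc6a16, Slc6a3 and Slc7a14, none of which passed the test, and Slc36a4 and Slc38a9 had no match. The element TGATGNAA, through which Atf4 acts on amino acid responsive genes, was found in the windows of Slc1a4, Slc6a21 and Slc7a7 (6.52% of members against 4.51% of all genes) and in none of the 5 windows of genes that rose. A match is a string of letters and not a measured binding site.

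**Figure D3:**
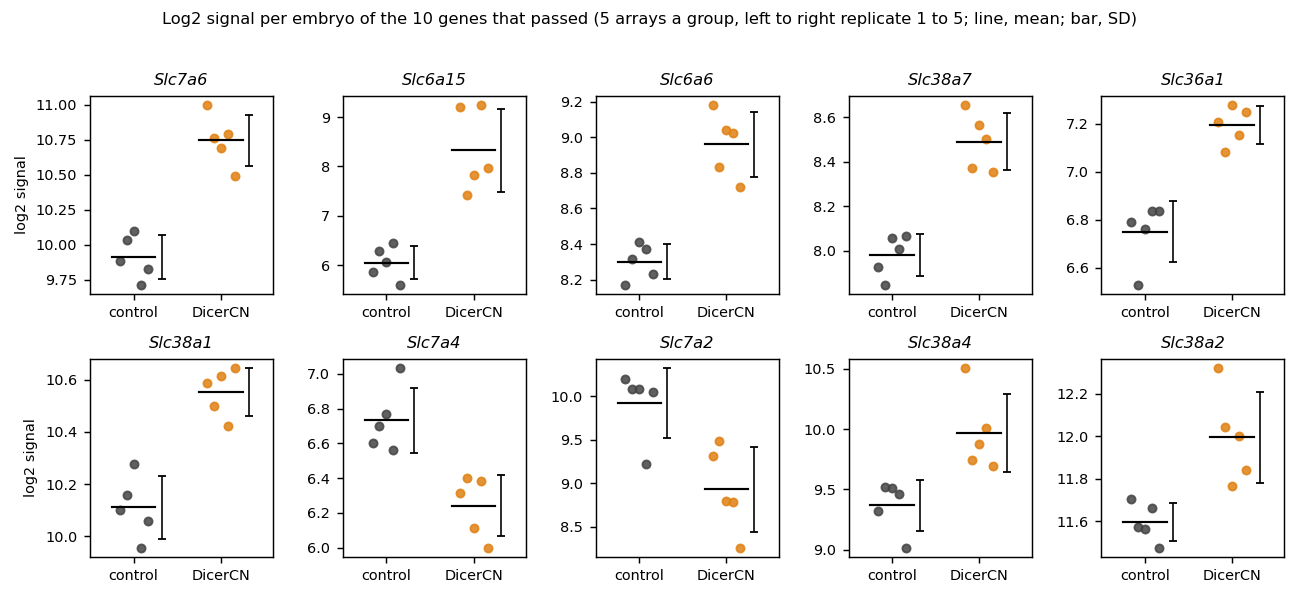
Log2 signal (y axis) of the 10 genes that passed, in 5 control and 5 DicerCN arrays; points run from replicate 1 to 5, lines are means and bars SD. The groups are apart in 9 genes and overlap in Slc7a2, where control replicate 4, at 9.21, lies among the DicerCN arrays.

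Slc7a6 was the only light chain of the 8 measured that passed (12.5%, where 6.54% of all genes did). It encodes a partner of Slc3a2 that exchanges cationic for neutral amino acids. Its signals were 9.88, 10.03, 10.10, 9.71 and 9.83 in control and 11.00, 10.76, 10.69, 10.79 and 10.49 in DicerCN lenses. It rose 1.78-fold (change 0.84, SE 0.10, limma adjusted p = 0.000672), with all DicerCN arrays above all control arrays, and it had the smallest adjusted p of the 63 genes. Among the other 7 light chains Slc7a5, the exchanger of large neutral amino acids, had a change of −0.29 (SE 0.10, adjusted p = 0.140), and Slc7a8, which carries a similar range, one of 0.21 (SE 0.15). Slc7a7 had a change of 0.08, and Slc7a9, Slc7a10, Slc7a12 and Slc7a13 lay between −0.09 and 0.02. Slc3a2, the heavy chain that Slc7a5, Slc7a6 and Slc7a8 share, had a change of −0.21 (SE 0.09, adjusted p = 0.217), and Slc3a1, the other heavy chain, one of −0.07. Slc7a5 and Slc3a2 are named after their values were seen, and Slc7a5 passed without DicerCN replicate 3 (0.0433) and with array weights (0.0437).

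Among the cationic carriers and related genes of Slc7, 2 of 6 were lower (33.3%). Of all genes 3.97% were lower, and of those above the median gene in control 7.29%. Slc7a2, a carrier of arginine and lysine, had signals of 10.20, 10.08, 10.08, 9.21 and 10.05 in control and of 9.32, 9.49, 8.79, 8.78 and 8.26 in DicerCN lenses. It fell by 0.998 (SE 0.23, limma adjusted p = 0.0228), with control replicate 4 below DicerCN replicates 1 and 2. Leaving out any of the control arrays 1, 2, 3 and 5 or the DicerCN arrays 3 and 4 ended the call (adjusted p 0.0528 to 0.0658). It was also lost with the neural retina score as a covariate (change −0.78, adjusted p = 0.0879), and the part of retinal RNA in it was not tested. Slc7a4, a relative whose transport activity is uncertain, stood at 6.60, 6.70, 6.77, 6.56 and 7.03 in control and at 6.31, 6.4002, 6.11, 6.38 and 5.999 in DicerCN lenses. It fell by 0.49 (SE 0.11, adjusted p = 0.0178) without overlap. With the neural retina score as a covariate its change was −0.42 (adjusted p = 0.0690). Slc7a1, the widely expressed arginine carrier, had a change of −0.12, and Slc7a3, Slc7a14 and Slc7a15 lay between −0.08 and 0.10.

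Of 21 Slc6 genes, 2 rose (9.52%, where 2.56% of all genes did) and the other 19 did not pass. Slc6a15, a carrier of branched-chain amino acids and proline known from neurons, had the largest change of all members. Its signals were 5.87, 6.28, 6.06, 6.46 and 5.604 in control and 9.20, 7.42, 7.82, 9.25 and 7.97 in DicerCN lenses. The control mean of 6.06 lay below the median gene. The groups were far apart, and DicerCN replicates 1 and 4 stood above the other 3. It rose 4.85-fold (limma adjusted p = 0.00145; 95% confidence interval of the log2 change 1.57 to 2.99). Those 2 replicates and replicate 3 also had the 3 highest macrophage scores (0.92, 0.72 and 1.08), while replicate 3 was not among the highest for Slc6a15. Fitted beside the macrophage score, the change was 1.59 (limma adjusted p = 0.107). The pigment epithelium score, 0.18 at most in control, was highest in DicerCN replicates 4, 5 and 1 (1.41, 0.92 and 0.84). It was lowest in replicate 2 (−0.25), as was Slc6a15 among the DicerCN arrays, and it was not fitted as a covariate. The part of macrophage or pigment epithelium RNA in the Slc6a15 change was not tested.

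Slc6a6, the taurine carrier, was at 8.17, 8.32, 8.41, 8.37 and 8.23 in control and at 9.18, 8.83, 9.04, 9.02 and 8.72 in DicerCN lenses. It rose 1.58-fold without overlap (change 0.66, SE 0.09, limma adjusted p = 0.00145). The creatine carrier Slc6a8 had a change of 0.32 and the GABA carriers Slc6a11, Slc6a12 and Slc6a13 of −0.33, 0.10 and −0.01. Slc6a11 had an adjusted p of 0.0878, 0.0380 without DicerCN replicate 1 and 0.0399 with array weights. The glycine carriers Slc6a5 and Slc6a9 (0.05 and 0.16) and the monoamine carriers Slc6a2, Slc6a3 and Slc6a4 (−0.02, 0.04 and 0.17) did not pass. The other carriers of neutral amino acids and their relatives (Slc6a7, Slc6a14, Slc6a16 to Slc6a19, Slc6a20a, Slc6a20b and Slc6a21) lay between −0.05 and 0.15, and Slc6a19os was at 0.03. Slc6a20a and Slc6a20b are near-identical and may share probes, so their separate values are uncertain.

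Neither the Slc43 nor the Slc1 family held a gene that passed in limma, with 2 of 3 and 1 of 7 genes at an unadjusted p under 0.05. Of all 19938 genes tested, 3708 were under that value. The Slc43 genes all lay above 0. Slc43a2, a facilitator of large neutral amino acids, had signals of 6.48, 6.24, 6.54, 6.77 and 6.42 in control and of 7.33, 6.49, 7.22, 6.96 and 6.91 in DicerCN lenses. Only DicerCN replicate 2 fell within the control range, and the change of 0.49 (SE 0.15) had a limma adjusted p of 0.0695. It passed without control replicate 4 (0.0465) or DicerCN replicate 2 (0.0137). It also passed with the replicate number as a block (0.0380) or the neuron score as a covariate (0.0329). Its change was 0.089 once the macrophage score was fitted beside the group. Slc43a1, of like function, and Slc43a3, a nucleobase carrier, had changes of 0.37 (SE 0.17) and 0.35 (SE 0.17). Among the glutamate carriers of Slc1, Slc1a2 had a change of 0.23 (SE 0.10, adjusted p = 0.232). Slc1a3, a glial carrier that retinal progenitors also express, had a change of 0.41 (SE 0.30), with 7.30 and 7.70 in DicerCN replicates 4 and 5 and 5.78 to 6.54 in the other 8 arrays. These were the 2 arrays with the highest neural retina scores. With that score as a covariate the change was −0.12, and the part of retinal RNA in it was not tested. Slc1a4 and Slc1a5, exchangers of alanine, serine and glutamine, had changes of −0.05 (SE 0.12) and −0.29 (SE 0.23), and the glutamate carriers Slc1a1, Slc1a6 and Slc1a7 of −0.14, 0.03 and 0.05.

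The macrophage score was also fitted beside the group. Its difference between the groups did not pass after adjustment over the 9 lists, where 1 list alone could not pass. With it as a covariate 1 of the 63 genes passed, Slc7a6 (change 0.74, limma adjusted p = 0.0479), where 1.01% of all genes did. The other 9 kept their sign, at adjusted p between 0.106 and 0.630, and 8 of the 10 changes stayed within 1.5 times their value. The exceptions were Slc6a6, at 0.42, and Slc38a4, at 0.24. The changes of Slc38a1 and Slc36a1 were 0.45 and 0.41 with the covariate. With the neural retina score 8 of the 10 passed, where 5.02% of all genes did. Without control replicate 4 and DicerCN replicate 5, which stood apart in muscle and in retina and neuron markers, all 10 passed again. That omission kept DicerCN replicate 4, which had the next highest neural retina score (0.96). Without DicerCN replicate 4 alone 7 of the 10 passed, and Slc38a2, Slc38a4 and Slc7a2 lost their call. The part of macrophage RNA in these values was not tested.

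**Figure D4:**
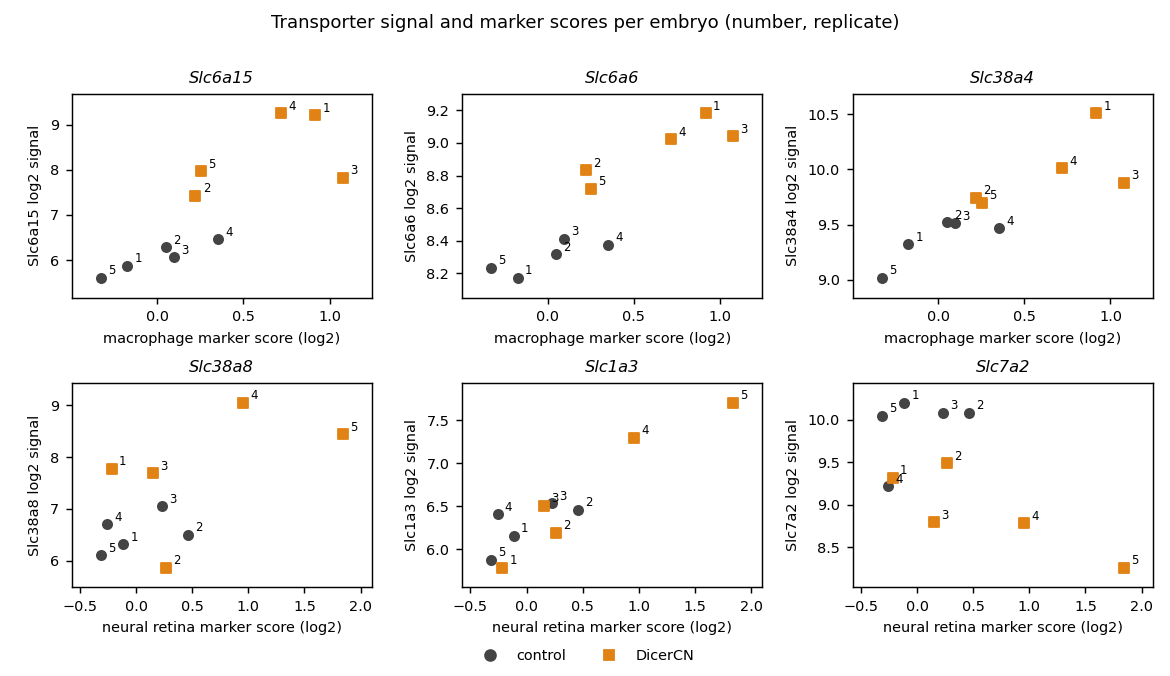
Log2 signal (y axis) of 6 genes against the macrophage or neural retina marker score (x axis, mean log2 signal of the markers minus the control mean) in each embryo; circles are control and squares DicerCN arrays, numbered by replicate. Slc6a15 is highest in DicerCN replicates 1 and 4, whose macrophage scores are 0.92 and 0.72. It is also above all controls in DicerCN replicates 2 and 5, whose scores of 0.22 and 0.25 lie within the control range. Slc38a8 and Slc1a3 are highest in DicerCN replicates 4 and 5. The part of macrophage or retinal RNA in these values was not tested.

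Genes around these carriers were taken from 4 further lists. Of 19 measured genes of the amino acid starvation response, which Atf4 controls, 1 rose and 2 fell, with a median change of −0.098. Sesn2, a leucine sensor that restrains mTORC1, rose by 0.56 (SE 0.12, limma adjusted p = 0.0137). Psph, the last enzyme of serine synthesis, fell by 0.46 (SE 0.09, adjusted p = 0.00970) and Aldh18a1, an enzyme of proline synthesis, fell by 0.46 (SE 0.10, adjusted p = 0.0168). Mthfd2, an enzyme of mitochondrial folate metabolism, had a change of −0.21. Atf4 itself and the starvation markers Asns, Trib3 and Chac1, named after their values were seen, had changes of −0.06, −0.10, −0.19 and 0.10 and did not pass.

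Of 28 genes by which mTORC1 senses amino acids, 2 rose and 1 fell, with a median change of −0.070. Rragd, a Rag GTPase, rose by 0.65 (SE 0.14, limma adjusted p = 0.0157) and Fnip1, a partner of folliculin that acts on Rag GTPases, by 0.52 (SE 0.09, adjusted p = 0.00336). Lamtor4, a subunit of the Ragulator scaffold on the lysosome, fell by 0.54 (SE 0.09, adjusted p = 0.00325). Rptor, the defining subunit of mTORC1, had a change of −0.36 (adjusted p = 0.0706), and passed with array weights (0.0409) and with the replicate block (0.0473). Of 19 amino acid and peptide carriers of other families 1 fell, Slc25a38, the mitochondrial glycine carrier, by 0.48 (SE 0.13, adjusted p = 0.0462). This call was lost without any 1 of 7 arrays, control replicates 1, 2, 3 and 5 and DicerCN replicates 1, 2 and 4 (0.0734 to 0.117). Slc16a10, Slc25a12 and Slc15a1 did not pass, with changes of 0.39, −0.17 and 0.21. Of 14 genes of glutamate, GABA, taurine and creatine metabolism 1 fell, Gamt, which completes creatine synthesis, by 0.42 (SE 0.11, adjusted p = 0.0334). It lost its call without any 1 of 7 arrays, control replicates 1, 3, 4 and 5 and DicerCN replicates 3, 4 and 5 (0.0526 to 0.0915). Bcat1, Abat and Got2, enzymes of branched-chain amino acids, GABA and glutamate, had changes of 0.36, −0.27 and −0.18 and did not pass. Abat passed with the neural retina score (0.0152) or the neuron score (0.0335) as a covariate, without DicerCN replicate 5 (0.0294), and without that array and control replicate 4 (0.0487). Bcat1 passed with quantile normalization (0.0355). Once the macrophage score was fitted beside the group, Lamtor4 alone of these 8 called genes passed (0.0474), and Rragd, Slc25a38 and Gamt also lost their call with the neural retina score. The share of genes that passed was 15.8%, 10.7%, 5.26% and 7.14% in the 4 lists, next to 6.54% of all genes and 11.2% of those above the median gene in control. In the first and second list 14 of 19 and 27 of 28 genes lay above that median.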

How the data were processed

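The lenses of each embryo gave 1 RNA sample and 1 Affymetrix whole-transcript array, per the labels' protocols, and the submitters' processing notes name GCOS. The deposited values are taken as log2 signals from their range (1.91 to 15.2). The sources used here do not give the summary and normalization method. Array medians of 6.54 to 6.56 are those of scaled arrays, in which a change of total RNA cannot be seen. Precision depends on the number of arrays (median SE of a gene 0.0986). Of 35557 probe sets, 21789 had 1 gene symbol, 1621 several and 12147 none, and the last 2 kinds were left out. RefSeq gene IDs matched 21698 and changed 0 symbols.

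The 2 groups were compared by limma 3.58.1 (R 4.3.3; lmFit, eBayes, 2-sided) over all 19938 genes with Benjamini-Hochberg adjustment, at a threshold of 0.05. The fit was tested on simulated data. Marker scores were compared by exact permutation over 252 partitions. The members, lists, markers and roles were chosen with earlier results of these data known. Named genes are members that passed, the 2 of smallest p in each family (15 genes in all) and up to 4 of each of 4 lists. The remaining members are given by their change or a range of changes, and any of them given with an SE or a p was chosen after its values were seen. Alternatives were quantile normalization, leaving out the 25% of genes of lowest signal, means of probe sets, array weights, a mean-variance trend, the replicate number as a block, marker scores as covariates, adjustment over all probe sets and leaving out arrays. The neuron covariate and the omission of control array 4 together with DicerCN array 5 were added after seeing the data.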

Additional observations from a re-analysis of the deposited data

Results flagged for a closer look

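In 5 of 126 groups of 5 arrays (63 genes in 2 groups) 1 array stood far from the other 4, by a gap of more than 0.71 of the group's range; chance gives about 1 in 20. Slc7a2, the arginine carrier that fell, stood at 9.21 in control replicate 4, with the other control arrays at 10.05 to 10.20. Without that array its change was −1.18. Slc7a7, a light chain, was also lowest in control replicate 4 among controls, at 6.81. Slc36a1 was at 6.53 in control replicate 2, with the others at 6.76 to 6.84, and all DicerCN arrays lay above. Slc43a3 was at 7.48 in DicerCN replicate 2, with the others at 7.99 to 8.09. Slc7a6os was at 8.29 in DicerCN replicate 5, with the others at 7.92 to 8.01.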

How the results depend on the processing

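The higher count of 8 was 6 to 10 when 1 array was left out and 1 once the macrophage score was a covariate, and within 1.5 times of 8 under the other settings. The lower count of 2 was 1 to 3 when 1 array was left out, 4 with array weights, 1 with adjustment over all probe sets and with the neuron score, and 0 in limma with the macrophage or neural retina score (3 and 4 at an unadjusted p under 0.05). Over all genes 1303 passed, but 201 with the macrophage score, 851 with adjustment over all probe sets, and 784 and 865 without control replicates 1 and 2. The replicate block gave 9 higher and 1 lower, losing Slc7a4 (adjusted p = 0.0624) and adding Slc43a2 (0.0380). Deviations of same-numbered arrays from their group means correlated weakly (−0.088 to 0.19, the highest for replicate 4). The labels do not say whether the numbers pair embryos, and these correlations cannot show it either way. All 10 called genes kept their sign under every alternative run. Sign changes were counted only for the genes named by rule and some members chosen after their values were seen. Among these, genes that did not pass changed sign in 16 cases, at limma adjusted p from 0.474 to 0.997. No direction is claimed for them. The remaining members were not followed in this way, and some had changes close to 0, such as Slc7a10 (0.0013). Slc1a3 became −0.12 with the retina score and Slc43a3 −0.11 with the macrophage score, and each kept its sign in 20 of 21 alternatives. Slc6a17 became −0.096 with array weights, −0.60 with the macrophage score and −0.043, −0.076 and −0.091 without control replicate 5 and DicerCN replicates 1 and 3, and was 0.33 without DicerCN replicate 2. Slc38a9 became 0.018 with the macrophage score and 0.051 and 0.0028 without DicerCN replicates 3 and 4. Slc36a4 became −0.087 and −0.059 with the macrophage and retina scores, −0.0017, −0.010 and −0.017 without control replicate 5 and DicerCN replicates 4 and 5, −0.0043 without control replicate 4 and DicerCN replicate 5, and was 0.13 without DicerCN replicate 2. The cause was not tested.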
